A study of Mus musculus with 23 samples.

Results

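Libraries made from 1000 splenic T cells were compared with libraries made from 10000, across all genes of one count table. The groups were taken from the input named in the sample titles, and they held 3 libraries each, so that 6 of the 23 libraries of the series entered the comparison. All 6 came from spleen CD3+ T cells of mice of strain C57 aged 6 to 18 weeks, with no genotype or treatment named. The study asked how a low-input RNA sequencing protocol behaves as its input falls, in cells and in diluted RNA. How the cells were isolated, and whether replicates came from separate mice or from separate aliquots of one suspension, is not given in the sources used here, and where they did not, a p-value covers only spread between preparations.

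CD3 is the signalling complex of the T cell receptor and marks T cells of the CD4 helper and the CD8 cytotoxic lineage. A spleen also holds B cells, antigen-presenting myeloid cells and large numbers of red cells, whose RNA can travel with a T cell preparation. In this protocol RNA was copied from its poly(A) tail with an oligo-dT primer, made double-stranded, and then cut and tagged by the Tn5 transposase, so a library samples fragments along each cDNA and not 1 tag per molecule.

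The 1000-cell libraries held 2363975 to 2715179 counts and the 10000-cell libraries 3401992 to 3627647. The T cell label was borne out by a list of 24 T cell core genes, all of them tested, which took 1.27% to 1.29% of counts at 1000 cells and 1.30% to 1.34% at 10000. Cd3e, a CD3 chain named here as a check, lay at 417 ± 20.7 and 428 ± 30.8 CPM (mean ± SD, n = 3, with each count scaled to its library's total). B cell genes took 0.194% to 0.218% of counts in each of the 6 libraries. Across genes, log2(CPM + 1) correlated with Pearson's r between 0.935 and 0.938 within the 1000-cell group, between 0.965 and 0.967 within the 10000-cell group, and between 0.945 and 0.950 across the groups. These values are a description, since genes are no independent replicates.

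Of 13415 genes tested, 438 (3.27%) passed a threshold of 0.05 in the quasi-likelihood test of edgeR, after Benjamini-Hochberg adjustment. At 1000 cells 165 genes (1.23%) were higher and 273 (2.04%) lower. The sizes were mostly small: the median absolute log2 fold change of the 438 was 0.48, and 36 genes rose and 25 fell by more than 2-fold. The groups did not overlap in CPM for 2807 genes (20.9%), 1283 of them higher (9.56%) and 1524 lower (11.4%), and the median change of all genes was 0.012. Calls were more frequent at high levels: 1.8% of genes at 100 to 300 CPM were higher and 6.54% lower, against 9.61% and 15.7% at 300 to 1000 CPM and 25.4% and 14.9% at 1000 CPM or more. Changes are log2 of 1000 over 10000 cells throughout, with the standard error (SE) from the fit.

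**Figure D1:**
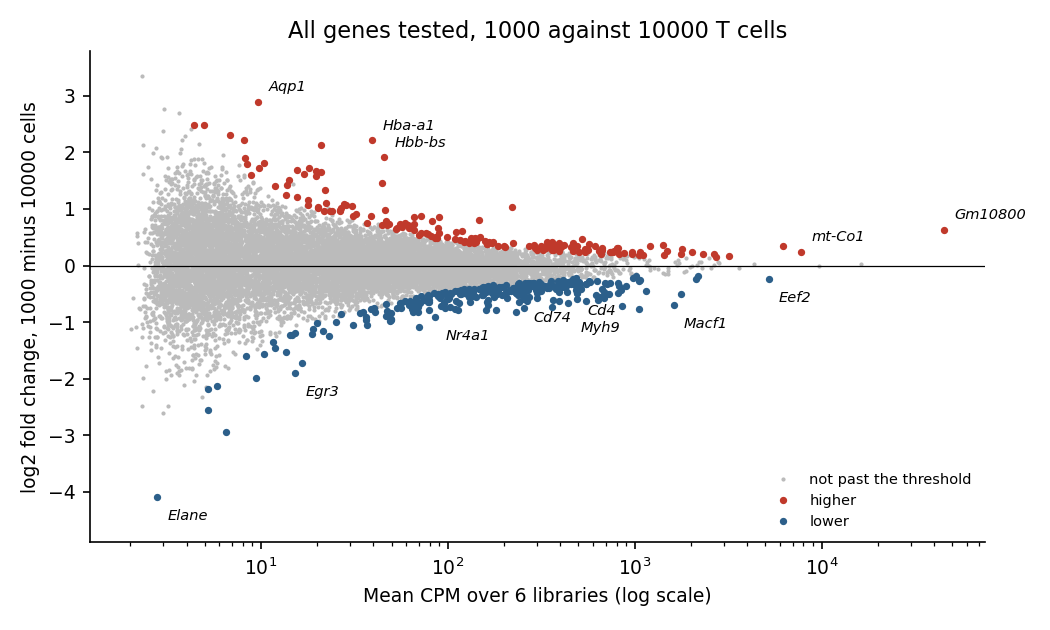
Log2 fold change (1000 minus 10000 cells) of each of 13415 genes against its mean CPM over the 6 libraries on a log axis, with 165 genes past the threshold higher in red, 273 lower in blue and the rest in grey. Genes past the threshold lie nearer 0 towards the right, with a median absolute change of 2.19 at 3 to 10 CPM and 0.25 at 1000 CPM or more. Abundant genes also lie away from 0, such as Gm10800 at 0.64 and Myh9 at -0.77.

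Each of the 10000-cell libraries weighed on the count. It was 201 without replicate 1, 217 without replicate 2 and 181 without replicate 3 of that group. With the 100 and 500-cell libraries in the same fit, which then share 1 estimate of the spread, 15 genes passed, all lower and all among the 438, and no red cell gene did. Among those 15 were Myh9, Macf1, Flna, Tln1, Herc2, Birc6, Mycbp2, Prpf8 and Kmt2c. One library of that fit, replicate 3 of 100 cells, stood apart from the other 11. It carried 1.87% of its counts on B cell genes (0.153% to 0.368% in the others), 0.706% on class II genes (0.0498% to 0.106%) and 0.25% on neutrophil genes (0.00624% to 0.0119%), and Y-linked genes at 184 CPM (0 to 4.33 CPM). Without it, a fit added after seeing the data, the joint fit called 76 genes, 19 higher and 57 lower, all among the 438. The 500-cell libraries differed as well in Igkc, the kappa light chain, at 1185 to 1233 CPM. Igkc lay at 79.1 to 90.3 CPM at 1000 cells, 99.0 to 121 CPM at 10000, and 46.3 and 74.1 CPM in replicates 1 and 2 of 100 cells.

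Red cell genes formed the group with the largest rises. All 4 globin genes that passed the filter on low counts, of 9 in the table, were higher at 1000 cells, with a median log2 fold change of 2.02 beside 0.012 for all genes and 1.23% of all genes called higher. Of 40 other erythroid genes tested, from 49 in the table, 8 were higher and 0 lower, with a median of 0.47. Of their changes 29 were above 0 and 11 below. The abundant Epb41, Mkrn1 and Bnip3l did not rise, with means of 206, 107 and 120 CPM at 1000 cells and 233, 116 and 123 CPM at 10000. DESeq2, voomWithQualityWeights, library sizes alone and the replicate block each called 1 member lower. So did the fits without a filter on low counts, with a minimum of 10 CPM, thinned, and with counts divided by 2. The same held with the GC trend removed and without replicate 1 of 1000 cells. The groups did not overlap, with 1000 cells above, for 20 of the 40, against 9.56% of all genes. The filter keeps a gene through the group in which it is high, so these counts cover only members that passed it.

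Globins are the oxygen carriers of the red cell, and the adult protein joins alpha chains (Hba) to beta chains (Hbb). Their promoters are shown because these genes moved together. Each run below is the 150 bases before the RefSeq start on GRCm38.p6, with CCAAT and CACCC boxes in capitals on either strand, a CCAAT box on the other strand reading ATTGG.
Hba-a1, chr11:32283522-32283671, plus strand: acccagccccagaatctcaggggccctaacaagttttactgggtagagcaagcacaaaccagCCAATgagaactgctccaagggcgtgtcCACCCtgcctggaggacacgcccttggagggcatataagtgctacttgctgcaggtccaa
Hbb-bs, chr7:103827929-103828078, minus strand: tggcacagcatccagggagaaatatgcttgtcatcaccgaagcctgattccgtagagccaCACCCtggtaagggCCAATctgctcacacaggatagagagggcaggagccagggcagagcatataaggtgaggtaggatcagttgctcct
Hbb-bt, chr7:103813924-103814073, minus strand: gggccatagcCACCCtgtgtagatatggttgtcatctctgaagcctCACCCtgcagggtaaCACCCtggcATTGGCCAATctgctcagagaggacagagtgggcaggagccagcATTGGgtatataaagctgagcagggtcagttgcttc
The alpha promoter has its CCAAT box 88 bases and its CACCC box 60 bases before the start. In Hbb-bs the order is the reverse, with CACCC at 90 and CCAAT at 76 bases, and Hbb-bt holds 3 CACCC boxes, at 140, 104 and 89 bases. In the 250 bases before the start, CACCC stood in 6 and CCAAT in 5 of the 8 red cell genes past the threshold that had a promoter in the table (of 12). The 2 boxes stood in 52.0% and 33.8% of all 32851 promoters. A gene was counted where any of its promoters matched, while these shares are per promoter. The GATA site AGATAA stood in Hbb-bs and Kel, 2 of the 8, and in 9.99% of all promoters. Such matches describe the letters and not binding.

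Hba-a1 lay at 55.8, 74.4 and 64.3 CPM in replicates 1 to 3 of the 1000-cell group and at 13.9, 13.8 and 14.4 CPM in those of the 10000-cell group. The lowest 1000-cell library was thus well above the highest 10000-cell library, and the fitted change was 2.22 (SE 0.221; edgeR adjusted p = 7.64e-09). Hbb-bs stood at 71.1, 71.1 and 74.3 CPM against 22.03, 16.8 and 19.1 CPM (1.91, SE 0.202), and Hbb-bt at 34.7, 28.4 and 39.2 CPM against 6.13, 10.8 and 6.47 CPM (2.13, SE 0.309). Hba-a2, the second alpha gene, was lower in level at 12.9 to 16.4 CPM against 2.23 to 6.34 CPM (1.73, SE 0.453; edgeR adjusted p = 0.0238), and its call was lost without replicate 1 or 3 of either group. The annotated transcripts of Hba-a1 and Hba-a2 share 537 of 538 aligned bases and those of Hbb-bs and Hbb-bt 580 of 626, so how reads were split between the copies, and whether shared reads were counted at all, is uncertain. Summed over the 9 globins, the level was 180 to 194 CPM at 1000 cells and 46.3 to 50.4 CPM at 10000.

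The 8 other erythroid genes past the threshold code mainly for the membrane of the red cell. Ank1, the ankyrin of its skeleton, changed by 1.52 (SE 0.383), and Slc4a1, its anion exchanger, by 1.58 (SE 0.306), from 7.25 to 12.7 CPM at 10000 cells to 25.04 to 33.0 CPM at 1000. Aqp1, a water channel, lay at 17.8, 15.5 and 18.0 CPM against 1.67, 1.10 and 4.12 CPM, the largest change of the list (2.90, SE 0.499). Kel, a blood group antigen, Hemgn, a nuclear protein of erythroid cells, and Tspan33, a tetraspanin, rose by 2.22, 2.49 and 2.48 from levels under 6 CPM, and Car2, a carbonic anhydrase, by 1.03. None of these 8 genes overlapped between the groups. Not past the threshold were Alas2, the first enzyme of heme synthesis in red cells (0.98; edgeR adjusted p = 0.581), and Gata1, an erythroid transcription factor (0.61; adjusted p = 0.606), both named after their values were seen and both at means of 10.3 CPM or less. Cd24a, a surface protein of red cells and B cells outside the erythroid list, rose by 1.46 (SE 0.239), with a wide spread of 61.8, 37.6 and 95.1 CPM against 21.5 to 25.6 CPM.

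**Figure D2:**
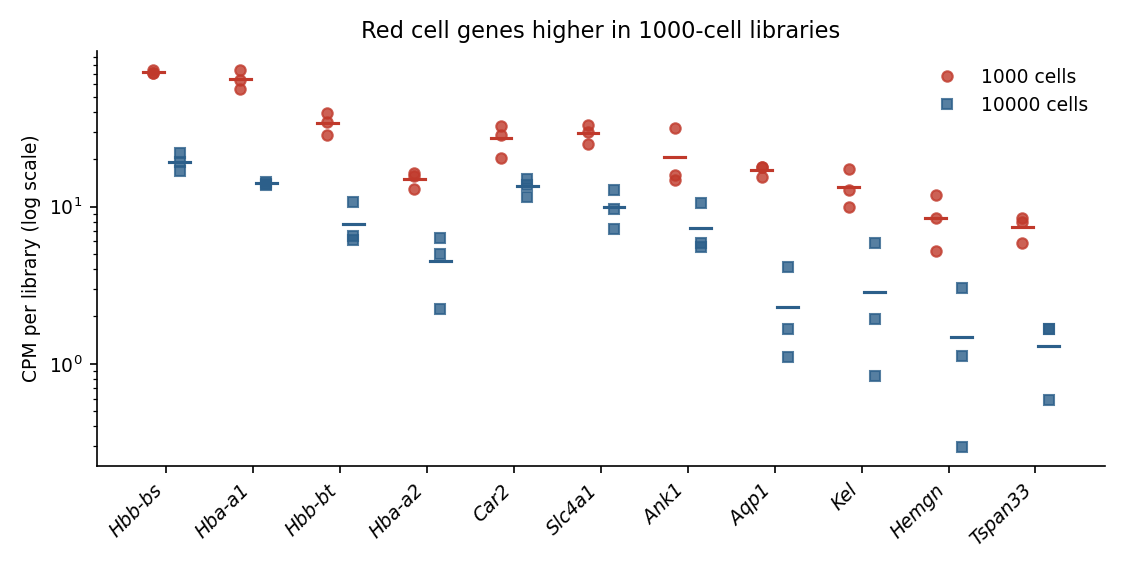
CPM per library on a log axis for the 4 globins and 7 of the 8 other erythroid genes past the threshold, with circles for 1000-cell libraries, squares for 10000-cell libraries and bars for the mean of 3. In all 11 genes the lowest circle lies above the highest square, from Hbb-bs at 71.1 to 74.3 CPM down to Tspan33 at 5.89 to 8.46 CPM.

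Across the smaller inputs the globin sum did not follow cell number. It was 130 to 164 CPM at 500 cells, and 14.6, 35.7 and 1219 CPM in replicates 1, 2 and 3 at 100 cells, replicate 3 being the library that stood apart. With all 12 T cell libraries in 1 fit the change of Hba-a1 was still 2.21, but its adjusted p by edgeR was 1, and without that library it was 0.00299, with Hbb-bs and Hbb-bt passing as well. With only the 500-cell libraries added, the 4 globins passed, and 3 of 41 other erythroid genes were higher. In the joint fit without replicate 3 of 100 cells, 0 of 44 other erythroid genes passed. Leaving out single libraries of the comparison left 3 to 6 other erythroid genes called higher. In bulk RNA, a change in the number of red cells or their precursors and a change in the RNA each carries cannot be told apart.

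Other cell types present in a spleen moved less, and not in 1 direction. MHC class II genes, which present antigen on B cells and myeloid cells, had a median of -0.46 over 13 genes, with 2 lower past the threshold. Cd74, the invariant chain of class II, lay at 195, 220 and 185 CPM at 1000 cells and 289, 300 and 325 CPM at 10000 (-0.59, SE 0.0898; edgeR adjusted p = 3.75e-05). H2-Ab1, a class II beta chain, lay at 60.5, 37.6 and 43.6 CPM against 73.3, 80.5 and 97.6 CPM (-0.82, SE 0.179), and its call was lost without replicate 3 of the 10000-cell group. The groups did not overlap for either gene. Of the abundant members that did not pass, H2-Aa had -0.40, H2-Ob -0.068 and Ctss, a cathepsin that processes the invariant chain, 0.30.

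Of 26 B cell and 12 plasma cell genes 0 passed, with medians of -0.17 and -0.077. Their median levels were 34.6 and 10.1 CPM, and 2.61% of all genes at 30 to 100 CPM and 1.37% at 10 to 30 CPM were called. B cells carry class II as well, and which cells the class II change came from was not tested. Ighm, the IgM constant region, had -0.087, Igkc, the kappa light chain, -0.29 and Cd37, a tetraspanin, 0.033. Among 27 monocyte and macrophage genes, with a median level of 9.60 CPM, 2 were higher and 1 lower. At 3 to 10 CPM 0.22% of all genes were higher and 0.147% lower. Csf1r, the growth factor receptor of macrophages, lay at 33.4, 44.6 and 35.2 CPM against 16.2, 15.4 and 22.05 CPM (1.09, SE 0.252), and Cd300e, a myeloid receptor, rose by 2.31 (SE 0.667) with 0 counts in replicate 1 of the 10000-cell group. Ctsz, a cathepsin, fell by 0.91 (SE 0.225). Vcam1, the adhesion molecule of red pulp macrophages, which clear old red cells, rose by 0.96 (SE 0.270), 1 of 15 genes of its list. The median level of that list was 9.84 CPM.

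Genes of granule-forming cells were near the limit of detection. Elane, neutrophil elastase, had 2 counts over the 1000-cell libraries and 56 over the 10000-cell libraries, a ratio of 20 in CPM with a 95% counting interval of 5.28 to 169. Mpo, myeloperoxidase, stood at 14.4, 5.89 and 0.799 CPM against 20.1, 21.8 and 19.1 CPM (-1.53, SE 0.446). The 1000-cell replicates of Mpo thus differed widely among themselves, and its call was lost without replicate 2 or 3 of that group, or without any of the 10000-cell libraries. These were 2 of 13 neutrophil genes, and Ltf and Ngp, named after their values were seen, did not pass. Kit, the stem cell factor receptor of mast cells and progenitors, lay at 4.65 to 7.59 CPM against 15.0 to 19.8 CPM (-1.46, SE 0.382). Platelet genes gave 0 of 9 and stroma and endothelium genes 0 of 19, at median levels of 5.87 and 6.36 CPM. At 3 to 10 CPM only 0.367% of all genes were called, so the absence of calls in these 2 lists says little.

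T cell identity genes mostly kept their level. Tcf7, a transcription factor of T cells, lay at 1757 ± 10.3 and 1716 ± 16.5 CPM (0.049), and 21 of the 24 T cell core genes were not called, with a median of -0.025. Trac, the alpha constant region of the receptor, rose by 0.24 (SE 0.0579), while Thy1, a surface glycoprotein, fell by 0.32 (SE 0.0602) and Lck, the kinase of CD4 and CD8, by 0.19 (SE 0.0510). Of 37 genes of proximal receptor signalling, with a median level of 265.6 CPM, 4 were lower and 0 higher: Lck, Plcg1, a phospholipase (-0.37), Dgkz, a diacylglycerol kinase (-0.30), and Cbl, a ubiquitin ligase (-0.38). At 100 to 300 CPM 6.54% of all genes were lower. With a trend over length and GC removed only Cbl passed, at -0.31, and Dgkz stood at -0.083.

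The co-receptor genes Cd4 and Cd8b1 were called in opposite directions, Cd8b1 less firmly. Cd4 lay at 419, 450 and 359 CPM at 1000 cells and 590, 549 and 592 CPM at 10000 (-0.48, SE 0.0733; edgeR adjusted p = 3.89e-05), with a gap between the groups. Cd8b1 lay at 508, 524 and 491 CPM against 405, 435 and 450 CPM (0.25, SE 0.0685; edgeR adjusted p = 0.0300), and Cd8a at 399 ± 15.9 against 385 ± 24.7 CPM (0.064; edgeR adjusted p = 0.757). Counts of Cd4 per count of Cd8a and Cd8b1 together were 0.451 ± 0.0356 at 1000 cells and 0.710 ± 0.0602 at 10000. The 3 lower values all belonged to 1000 cells, which in an exact two-sided permutation test gives p = 0.1, the smallest that 3 against 3 allow. The same ratio was 0.596 to 0.659 at 500 cells and 0.609 to 0.721 at 100, so the 1000-cell libraries were the lowest of the 12. Whether fewer CD4 cells or less Cd4 RNA per cell lay behind this cannot be told apart, and the lineage factors Zbtb7b (helper, -0.14) and Runx3 (cytotoxic, -0.19) did not pass. The call of Cd8b1 was lost without any 1 of the 10000-cell libraries, without replicate 1 or 2 of 1000 cells, without a filter on low counts (edgeR adjusted p = 0.0832), with the length trend removed (0.104), with both trends removed (0.216) and in all 3 joint fits. That of Cd4 was lost only with all T cell groups in 1 fit, among the settings tried.

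Of 22 genes of the naive, resting state, 3 rose and 0 fell, with a median of 0.043 and a range from -0.41. Their median level was 434 CPM, and at 300 to 1000 CPM 9.61% of all genes were higher. The groups did not overlap for 4 members above and 3 below. Klf2, the factor that keeps naive T cells circulating, lay at 884, 892 and 872 CPM against 722, 715 and 728 CPM, a narrow spread around a change of 0.31 (SE 0.0548; edgeR adjusted p = 0.000437). Il7r, the survival cytokine receptor, rose by 0.26 (SE 0.0611) and Klf6 by 0.33 (SE 0.0844), and neither passed with the trend over length and GC removed. Il2ra, the IL-2 receptor alpha chain of regulatory and activated T cells, rose by 0.73 (SE 0.187), whereas Foxp3, the regulatory lineage factor, stood at 78.1 ± 14.1 and 80.7 ± 3.56 CPM. Klrd1, a receptor of NK and memory CD8 cells, rose by 0.65 (SE 0.145), the only 1 of 23 cytotoxic and NK genes to pass. That list's median level was 12.2 CPM, and at 10 to 30 CPM 0.86% of all genes were higher.

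Immediate early genes, which a T cell transcribes within minutes of receptor engagement or stress, split. Of 28 tested, 4 were lower and 1 higher, against 2.04% and 1.23% of all genes, with a median of -0.029. At 100 to 300 CPM, the class of the list's median level, 6.54% of all genes were lower and 1.8% higher. The groups did not overlap for 10 members below and 4 above. Nr4a1, the nuclear receptor Nur77, lay at 62.6, 57.1 and 57.1 CPM against 117, 115 and 106 CPM (-0.92, SE 0.143; edgeR adjusted p = 5.04e-05). Egr3 lay at 5.08, 4.79 and 9.19 CPM against 31.5, 19.0 and 21.8 CPM, the largest fall of the comparison among genes of at least 20 CPM (-1.90, SE 0.362). The highest 1000-cell value of each was below the lowest 10000-cell value. Nr4a3 had -1.21 (SE 0.326) and Fosb -0.54 (SE 0.158), while Fos rose by 0.34 (SE 0.0840). With a replicate block and the trend over length and GC removed, Nr4a3, Fosb and Fos did not pass (edgeR adjusted p = 0.0871, 0.358 and 0.0517). Junb, Zfp36 and Dusp2, abundant members, had 0.15, 0.12 and 0.20 and did not pass. Nr4a1 at the smaller inputs lay at 85.8 to 133 CPM for 500 cells and 54.1 to 75.2 CPM for 100, and Egr3 at 12.8 to 27.7 and 35.2 to 48.4 CPM, so neither was ordered by cell number. Notch1, a receptor of T cell fate, and Lfng, which modifies Notch, fell by 0.75 (SE 0.0878) and 0.70 (SE 0.109), both named after their values were seen.

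Large genes of chromatin and the cytoskeleton were among the genes lower at 1000 cells. Of 85 chromatin regulators, 22 were lower and 0 higher, against 2.04% of all genes lower and 6.54% of genes at 100 to 300 CPM, the class of the list's median level, with a median change of -0.18. They took 1.76% to 1.82% of counts at 1000 cells and 2.09% to 2.12% at 10000, and 1.74% to 1.89% over the 6 libraries of 100 and 500 cells. Kmt2c, a histone H3 methyltransferase, lay at 402, 383 and 375 CPM against 591, 619 and 562 CPM (-0.60, SE 0.0679), with no overlap. Its relatives Kmt2a and Kmt2b fell by 0.42 and 0.55, the acetyltransferases Ep300 and Crebbp by 0.46 and 0.41, the remodellers Chd3, Chd4, Arid1a and Smarca4 by 0.48, 0.36, 0.44 and 0.43, and the demethylases Kdm4a and Kdm6b by 1.05 and 0.74. The list's median exon length was 10490 bases, beside 4940 for all genes. With a trend over length and GC removed, added after seeing the data, 5 of the 85 were lower and the median was -0.036.

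The 48 actin cytoskeleton genes split, with 8 lower and 5 higher. Their median level was 402 CPM, where 15.7% of all genes were lower and 9.61% higher. Myh9, the heavy chain of non-muscle myosin, lay at 781, 825 and 731 CPM against 1356, 1340 and 1327 CPM, a change of -0.77 (SE 0.0525; edgeR adjusted p = 3.19e-13) with a wide gap. Flna, filamin, lay at 1459, 1489 and 1400 CPM against 2017, 2068 and 2143 CPM (-0.50, SE 0.0431), and Tln1, talin, fell by 0.45 (SE 0.0492). These 3, with Dock2, Dock8, Actn4, Coro1a and Cap1, were the 8 lower members. The 5 higher members were small: Tmsb4x, thymosin beta 4, which holds actin monomers (0.30, SE 0.0426), Actr3 and Arpc5 of the Arp2/3 complex (0.23 and 0.39), and the capping proteins Capza1 and Capza2 (0.35 and 0.41). Actb, beta actin, was at 0.038. With the trend over length and GC removed, 3 members were lower, Myh9, Flna and Tln1, and 1 higher, Tmsb4x, while the calls of the other 9 were lost. Of 21 chemokine receptor and integrin genes, with a median level of 73.6 CPM, 2 were lower and 0 higher. At 30 to 100 CPM 1.59% of all genes were lower and 1.02% higher. Itgal, the alpha chain of the LFA-1 integrin, fell by 0.37 (SE 0.0585), and Itgax, the integrin alpha chain CD11c, by 1.23 (SE 0.360).

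Other giants of the cytosol had some of the smallest p-values of the comparison. Macf1, a linker of actin and microtubules, lay at 1256, 1158 and 1272 CPM against 2037, 1991 and 1992 CPM (-0.69, SE 0.0450; edgeR adjusted p = 9.08e-14), again with no overlap. The ubiquitin ligases Mycbp2, Herc2 and Birc6 changed by -0.72, -0.74 and -0.61. Over 100 and 500 cells Macf1 lay at 1348 to 1648 and 1375 to 1503 CPM, and Myh9 at 730 to 887 and 714 to 799 CPM, so the 10000-cell libraries stood highest of the 12 for both. With the trend over length and GC removed, Macf1, Myh9, Flna, Mycbp2, Herc2 and Birc6 still passed, with changes of -0.57, -0.52, -0.32, -0.60, -0.58 and -0.50.

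Mitochondrially encoded genes, with short transcripts, were higher or did not pass. Of 12 mitochondrially encoded genes 7 were higher and 0 lower, against 25.4% of genes at 1000 CPM or more, with a median change of 0.35 and a median level of 1016 CPM. mt-Co1, a subunit of cytochrome oxidase, lay at 8465, 8265 and 8553 CPM against 7224, 7424 and 6882 CPM (0.25, SE 0.0273), and mt-Nd2 of complex I rose by 0.37 (SE 0.0515). mt-Nd5 and mt-Nd4 had 0.017 and 0.070 and did not pass. Nuclear-encoded genes of the same respiratory complexes gave 0 of 79 past the threshold, at a lower median level of 40.4 CPM. At 30 to 100 CPM only 1.02% of all genes were higher and 1.59% lower, so the 2 counts are not at like levels. The median exon length of the 12 mitochondrial genes was 870.5 bases, with a median GC of 37.4%. With the trend over length and GC removed, 0 were higher and 3 lower, and the median was 0.0038.

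Of 81 cytosolic ribosomal protein genes 9 were higher and 0 lower, with a median of 0.12. Their median level was 502 CPM, and 9.61% of all genes at 300 to 1000 CPM were higher, a similar share. With the trend over length and GC removed 2 were higher and 1 lower. Rps4x rose by 0.20 (SE 0.0417), Rpl7 by 0.18 and Rpl30 by 0.37 (SE 0.0699). Translation factors divided: Tpt1, Eif1 and Eif3e rose by 0.21, 0.29 and 0.41, while Eef2, the elongation factor that moves the ribosome along, fell by 0.24 (SE 0.0289), from 5561 to 5817 CPM at 10000 cells to 4679 to 4794 CPM at 1000, and Eif4g1, the scaffold of initiation, by 0.49 (SE 0.0755). Splicing factors divided as well, with 7 higher and 5 lower of 60, and 1 and 3 with the trend over length and GC removed. Of 41 translation factors 3 were higher and 2 lower. The median levels were 213 CPM for splicing and 281 CPM for translation factors. At 100 to 300 CPM 1.8% of all genes were higher and 6.54% lower. The RNA-binding proteins Hnrnpa2b1, Hnrnpf, Hnrnph1, Hnrnpk, Srsf7, Rbm25 and Rbm39 rose by 0.21 to 0.35. Prpf8, the core of the spliceosome (-0.52, SE 0.0679), Snrnp200, its helicase (-0.36), and Srrm2, Son and Hnrnpl (-0.44, -0.26 and -0.65) were lower. Polr2a, the largest subunit of RNA polymerase II, named after its values were seen, lay at 358, 335 and 319 CPM against 527, 531 and 560 CPM (-0.66, SE 0.0706).

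**Figure D3:**
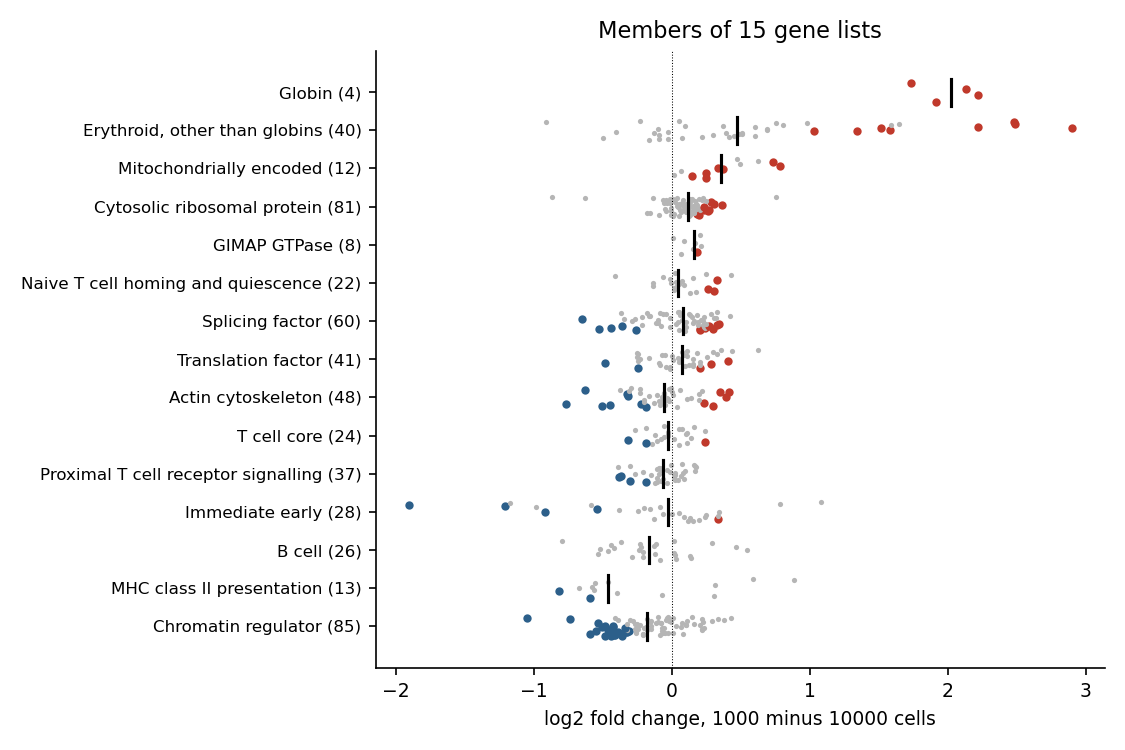
Log2 fold change (1000 minus 10000 cells) of every tested member of 15 gene lists, with the number tested in parentheses, members past the threshold higher in red and lower in blue, and a black bar at the list's median. Globins lie between 1.73 and 2.22, mitochondrially encoded genes all above 0, and the chromatin regulators past the threshold all below 0.

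Among the genes past the threshold, the direction went with exon length and GC content of the transcript. The 165 genes that were higher had medians of 3905 bases and 42.9% GC, the 273 that were lower 8360 bases and 53.3%, and all genes tested 4940 bases and 48.7%. Among genes of at least 100 CPM, which the depth measures best, 16.7% of those under 2 kb were higher and 0.794% lower, against 1.92% higher and 23.5% lower (61 of 260) of those of 12 kb or more. At the same levels 15.7% of genes under 42% GC were higher, and 14.9% of genes of 54% or more were lower. Both properties together separated the calls further: of 93 genes under 4 kb with GC under 45%, 28% were higher and 0 lower, and of 213 genes of 8 kb or more with GC of 50% or more, 0 were higher and 65 (30.5%) lower. Under 20 CPM length showed no such trend, with a median change of 0.061 both under 2 kb and at 12 kb or more. By GC the median there ran from 0.18 under 42% to -0.043 at 54% or more.

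**Figure D4:**
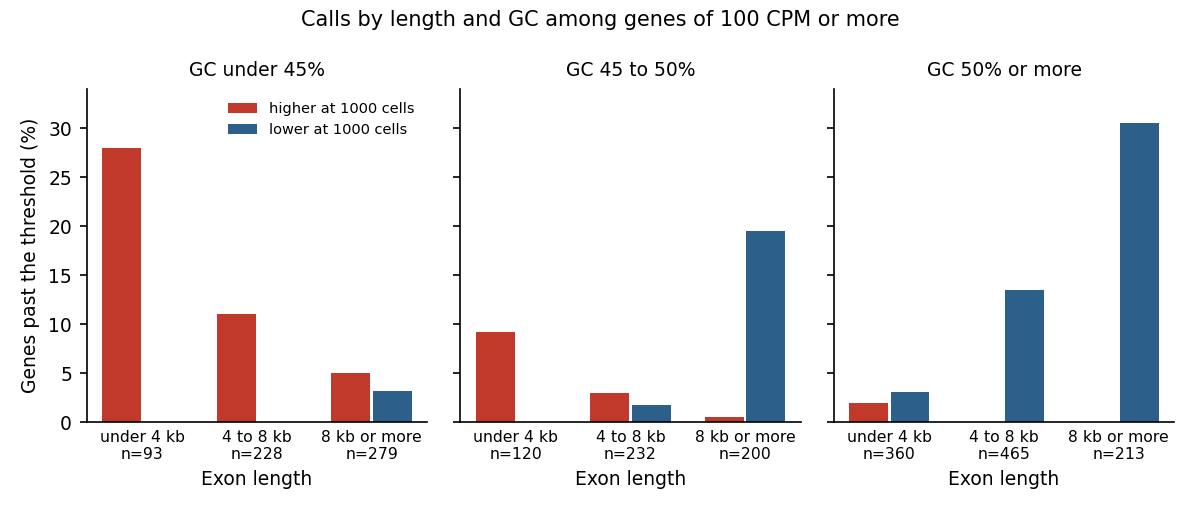
Percent of genes past the threshold among those of at least 100 CPM, by exon length and in 3 panels by GC content, with red bars for genes higher and blue bars for genes lower at 1000 cells and n for the genes of each class. Red bars fall from 28% in short genes of low GC to 0 in genes of 4 kb or more at 50% GC or more, where blue bars reach 30.5%.

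With a trend over length and GC taken out of the fold changes, 124 genes passed, 39 higher and 85 lower, and 117 of them were among the 438. Those still past the threshold included Hba-a1, Hbb-bs and Hbb-bt (2.22, 1.83 and 2.04), 5 of the other erythroid genes, Cd74 and H2-Ab1 (-0.56 and -0.74), Cd4 (-0.43), Nr4a1 (-0.81), Egr3 (-1.85) and Klf2 (0.40). Trac, Cd8b1 and mt-Co1 did not pass there, at 0.10, 0.19 and -0.013. Of 166 genes followed through the settings, 97 kept their sign there but lost their call. The labels give no fragment sizes, and the part of cDNA length or amplification in these trends was not tested.

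Other large changes were of genes with low levels. Spef2, named for a sperm flagellar protein, lay at 27.1, 24.7 and 31.6 CPM against 8.09, 9.37 and 7.94 CPM (1.72, SE 0.312), with the groups far apart. Prlr, the prolactin receptor, lay at 34.3, 20.6 and 16.8 CPM against 5.02, 9.10 and 8.23 CPM (1.69, SE 0.358). Ptprk, a receptor phosphatase, Slc17a5, the lysosomal sialic acid exporter, and Gorab, a Golgi protein, rose by 1.67, 1.66 and 1.62, with 1000-cell SDs of 9.98 to 13.7 CPM around means of 25.7 to 31.6 CPM. On the lower side Plxnd1, a semaphorin receptor, lay at 7.19, 9.94 and 5.59 CPM against 23.98, 21.2 and 31.5 CPM (-1.73, SE 0.336), Cd163l1, a scavenger receptor, had -1.25 (SE 0.292). Of 19 dendritic cell genes 1 was lower, Itgax, and 1 higher, Dpp4, a peptidase also found on T cells (0.38, SE 0.108). The dendritic list's median level was 18.4 CPM, and at 10 to 30 CPM 0.51% of all genes were lower and 0.86% higher. Epg5, an autophagy tether, lay at 35.1 to 57.8 CPM against 81.9 to 107 CPM (-1.08, SE 0.175).

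The most abundant symbol, Gm10800, a predicted gene, lay at 54696, 54325 and 55874 CPM against 36243, 37643 and 33382 CPM (0.64, SE 0.0222; edgeR adjusted p = 1.56e-22). Together with 11 predicted genes of similar GC, chosen after their values were seen, it took 6.77% ± 0.114 of counts at 1000 cells and 4.63% ± 0.323 at 10000 (SD, n = 3), and 8 of the 12 were higher and 0 lower. The share was 8.38% to 8.73% at 500 cells and 10.0%, 10.5% and 5.88% at 100. These symbols have close relatives, so counts of a single one are uncertain. The next most abundant genes, Lars2 and Eef1a1, stood at 0.030 and -0.013, and both passed with the trend over length and GC removed, at 0.18 and -0.10.

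Fewer genes had any count at 1000 cells. With each library thinned to 2363975 counts, 18700.7 ± 163 genes had at least 1 count at 1000 cells and 19677.7 ± 72.7 at 10000, a difference of -977 with no overlap (exact two-sided permutation p = 0.1, the smallest possible). At limits of 2 and 5 counts the difference was -362 and -209, and at 10 counts it was 243.333, the other way, each with the same exact p of 0.1, which adjustment over the 4 limits leaves at 0.1. All 3 libraries held a count for 16086 genes at 1000 cells and 17726 at 10000. Of the 17726, 141 had no count in any 1000-cell library, and of the 16086, 22 had none at 10000. The loss lay in the rarest genes: of 2835 genes at a mean of 1 to 2 CPM, 39.0% had a count in all 3 libraries at 1000 cells and 64.7% at 10000, while from 10 CPM upward it was 100% in both. Where both mates of a pair were counted, thinning single counts splits pairs, and it thins the deeper 10000-cell libraries most. With counts halved, rounded up and thinned as pairs, added after seeing the data, the difference was smaller, -549 genes with at least 1 pair, again with no overlap. At 1 to 2 CPM the shares were then 36.8% and 50.7%, and at 5 pairs or more the difference was 190.333, the other way.

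Replicates of 1000 cells spread more at every level. The biological coefficient of variation, edgeR's estimate of spread beyond counting, was 0.243 within the 1000-cell group and 0.124 within the 10000-cell group. The median coefficient of variation over 3 libraries was 47.5% and 33.4% for genes at 3 to 10 CPM, 26.2% and 18.6% at 10 to 30 CPM, and 3.22% and 2.32% at 1000 CPM or more. The 1000-cell libraries also held fewer counts, and thinned to a common depth the coefficients within the groups were 0.238 and 0.104. This spread set what the test could see: the smallest absolute log2 fold change past the threshold was 1.59 at 3 to 10 CPM, 0.46 at 30 to 100 CPM and 0.14 at 1000 CPM or more, and the share of genes called was 0.367%, 2.61% and 40.3% in those classes.

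**Figure D5:**
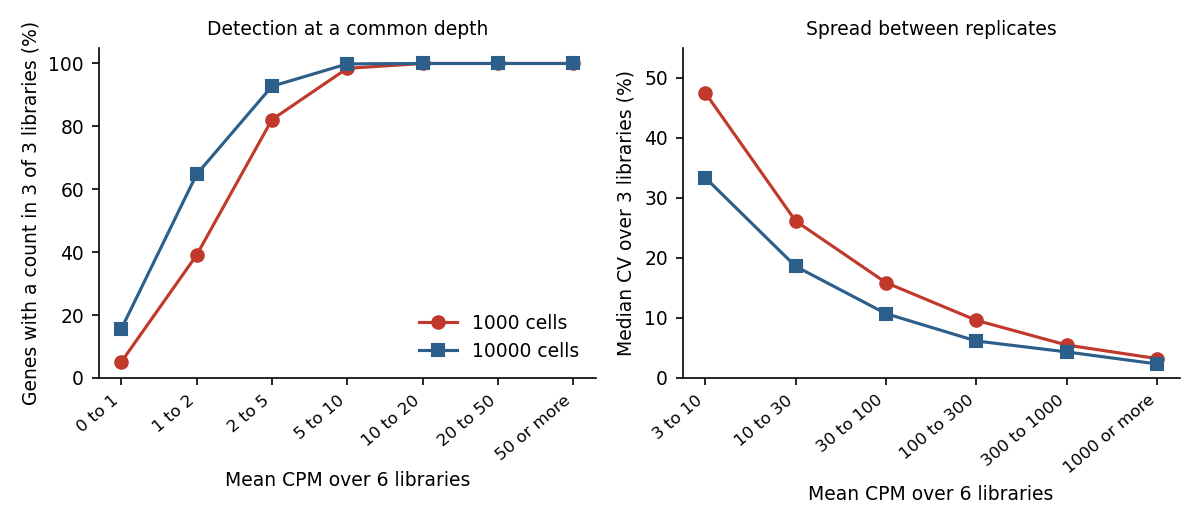
Left, percent of genes with a count in all 3 libraries of a group after thinning to a common depth, by mean CPM. Right, median coefficient of variation over the 3 libraries of a group, by mean CPM. Circles are 1000 cells and squares 10000 cells, and the curves meet at 100% from 10 CPM upward on the left and differ by 3.22% against 2.32% at the right end of the other panel.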

How the data were processed

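RNA was measured in 6 libraries of CD3+ T cells, 3 each at 1000 and 10000 cells, and the 100 and 500-cell libraries were used for levels and for alternatives. The authors deposited 1 table of whole-number counts for 22488 gene symbols, not normalized. Per the submitters' processing notes HISAT2 2.1.0, featureCounts (no version given) and the build mm8 were used, and counting options are not given in the sources used here. Even counts were common, whether mates were counted separately is not given, and the interval printed covers counting error only.

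The quasi-likelihood test of edgeR 4.0.16 (R 4.3.3) was run on the counts with TMM factors and filterByExpr, and p-values were adjusted by Benjamini-Hochberg over 13415 genes at a threshold of 0.05. SEs are the absolute fold change divided by the square root of F. Exon length and GC of the longest transcript came from GENCODE M21 on GRCm38 by symbol (13403 of 13415 genes). Promoters are RefSeq's on GRCm38.p6, a build other than the one listed. The script was tested on simulated data.

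The text names, past the threshold, the 15 genes that rose most and the 15 that fell most with groups that do not overlap and at least 20 CPM in the higher group, leaving out predicted genes and small RNAs. To these it adds the 10 smallest p-values, the 10 most abundant genes, and the called and 4 most abundant members of each list. The comparison and the gene lists were chosen with earlier results of these data known, and lists were not tested as sets. A few genes that this rule names are not reported here.

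Alternatives were DESeq2 1.42.0 and its size factors, library sizes alone, voomWithQualityWeights in limma 3.58.1, other filters, a replicate block, joint fits with smaller inputs, thinning to 2363975 counts, counts divided by 2, leaving out each library, and, added after seeing the data, removal of length and GC trends by loess with a span of 0.4, a joint fit without replicate 3 of 100 cells, and thinning of counts as pairs. Replicate numbers did not pair the libraries: residuals of same-numbered libraries correlated by -0.0012, 0.0003 and 0.0038. No 2 libraries held identical values.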

Additional observations from a re-analysis of the deposited data

How the results depend on the processing

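All 438 genes kept their direction under every alternative that gave them a value, apart from 2 with the GC trend removed and 7 with both trends removed. DESeq2 called 778 genes, edgeR with all T cell groups in 1 fit 15 (76 without replicate 3 of 100 cells), with the 500-cell libraries added 209, and leave-one-out fits 181 to 411. Without a filter on low counts 532 genes were called, 25% of them higher (133 of 532) where the reported split was 37.7%. The replicate block called 442, and with the length and GC trend removed as well 132, while removing GC alone left 247 and both trends 124. Calls with voomWithQualityWeights, DESeq2 size factors, library sizes alone, a minimum of 10 CPM, thinning, counts divided by 2 and the length trend removed lay between 360 and 556. The block ended the call of 8 of 166 named genes and moved no count of calls by more than 1.5 times. Among named genes not past the threshold, Lars2 turned to -0.0022 and H2-K1 to -0.013 without a filter, and Ptprc to 0.041 with the length trend removed. In leave-one-out Lars2 ran from -0.026 to 0.096, H2-K1 from -0.0031 to 0.030 and Actb from -0.0050 to 0.056. With both trends removed, B2m stood at -0.067, Gm21738 at -0.036 (-0.030 with the block), mt-Co1 at -0.013, mt-Cytb at -0.14 (-0.026 with GC alone), mt-Nd1 at -0.074, and mt-Nd6 at -0.056 (-0.054 with the block). The globin median was 0.75 without a filter, where 9 genes entered. The mitochondrially encoded median was 0.11 with the GC trend removed and 0.0038 with both (0.0031 with the block). The chromatin regulator median was -0.21 without a filter, -0.12 and -0.11 with the length or GC trend removed, and -0.036 with both (-0.037 with the block). The difference in genes detected reversed to 243.333 at 10 counts, was -549 thinned as pairs, and lay between -1071 and -926 in leave-one-out. The biological coefficient of variation was 0.178 and 0.101 with a minimum of 10 CPM, 0.238 and 0.104 after thinning, and 0.238 to 0.245 and 0.121 to 0.126 in leave-one-out. The cause of these shifts was not tested. With 3 libraries a group, genes under 10 CPM could show only changes past 1.59.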

Other observations

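Among variable segments of the T cell receptor, 1 of 18 alpha and 2 of 17 beta segments were higher at 1000 cells and 0 lower, against 1.23% of all genes higher. Trav7-4 lay at 12.3, 14.7 and 13.2 CPM against 5.58, 4.13 and 3.53 CPM (1.61, SE 0.457). Trbv31 lay at 27.5, 23.9 and 21.2 CPM against 12.8, 12.7 and 9.41 CPM (1.07, SE 0.307), and Trbv13-1 rose by 1.02 (SE 0.299). The groups did not overlap for any of the 3. Segments of 1 family resemble each other, so counts of single ones are uncertain. All 3 calls were lost with the replicate block, without a filter on low counts, and with the trend over length and GC removed. The list medians were 0.32 for alpha and 0.42 for beta segments.

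Interferon response genes gave 2 higher and 0 lower of 39, against 1.23% of all genes higher. Gbp3, a guanylate-binding protein induced by interferon, lay at 44.8, 63.0 and 76.3 CPM against 23.98, 32.5 and 37.3 CPM (0.99, SE 0.213). Of 31 chaperones 3 were called, Dnaja1 and Cct4 higher (0.37 and 0.31) and Dnajb1, a heat-induced partner of HSP70, lower (-0.44, SE 0.123), where 8.34% of all genes at 100 to 300 CPM were called. All 3 calls were lost with the GC trend removed, and that of Cct4 also without a filter on low counts. Mki67, a proliferation marker, fell by 0.43 (SE 0.118), 1 of 44 cell cycle genes, against 2.04% of all genes lower. Pkm, pyruvate kinase, was 1 of 20 glycolysis genes, at -0.24 (SE 0.0702). The calls of Mki67 and Pkm were lost with both trends removed.

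Receptor families of the nose, which T cells are not known to use, served as a background. Of 231 olfactory and 136 vomeronasal receptor genes tested, 0 were higher and 0 lower by edgeR, with medians of 0.038 and 0.15 and median GC of 38.2% and 38.0%. Their median levels were 3.81 and 5.29 CPM. At 3 to 10 CPM only 0.367% of all genes were called, so the absence of calls says little. All 1123 olfactory and 328 vomeronasal symbols, tested or not, took 0.247% and 0.116% of counts at 1000 cells and 0.237% and 0.102% at 10000.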
